A study of Mus musculus with 8 samples.

Results

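The comparison described here set bone marrow-derived macrophages (BMDMs) from Trex1-knockout mice (Trex1-KO) that had received the STING inhibitor H151 beside the same kind of cells given only the vehicle, dimethyl sulfoxide. Its members were the libraries titled ko1+h151 and ko2+h151 and the libraries titled ko1 and ko2, which are 4 of the 8 RNA-Seq libraries of the series. Incubation lasted 12 h, and H151 was used at 500 nM. BMDMs are macrophages differentiated in culture from mouse marrow, here in L929-conditioned medium. The study took marrow from mice of 6 to 8 weeks on a C57BL/6J background, and its Trex1-/- animals came from matings of heterozygotes, so Trex1 was absent from every cell type of the animal and not only from macrophages. The other libraries, 2 from wild-type (WT) BMDMs and 2 from Trex1-KO BMDMs given SN-011, another STING inhibitor, shared the same statistical fit and are used below only for reference. The study describes the 2 libraries of a group as independent experiments, while the labels do not say whether they came from separate animals, and p-values measure the spread between these libraries.

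TREX1 is a DNA exonuclease that removes DNA from the cytosol. DNA that accumulates there is bound by the enzyme cGAS, which makes a cyclic dinucleotide that activates STING, and STING in turn recruits the kinase TBK1 to switch on the transcription factors IRF3 and NF-kappaB. Type I interferon (IFN) made in this way acts through its receptor and a complex of transcription factors to raise many interferon-stimulated genes (ISGs), which in macrophages include antiviral effectors, guanosine triphosphatases and antigen-presentation genes. H151 binds STING covalently at a cysteine, whereas SN-011 occupies the pocket that holds the cyclic dinucleotide.

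Total counts were 13542902 and 15600789 in the Trex1-KO libraries and 12304509 and 15088900 in the Trex1-KO+H151 libraries, so that 1 count was worth 0.0660 to 0.0815 CPM (counts scaled by library size). Intervals cover counting error and the spread between libraries of a group, and read pairs are not independent molecules. Within each group, the 2 libraries had a Pearson's r of 0.994 to 0.995 between their log2 CPM values over the tested genes, and none of the 8 libraries was left out. Trex1 had 0 counts in all 8 libraries, WT included, and its exons lie wholly within those of Atrip, so the genotype could not be checked on these counts. Atrip itself was at 64.8 and 70.4 CPM with vehicle and 55.1 and 57.1 CPM with H151 and was not called (-0.27 ± 0.09). The labelled cell type was borne out by its markers: Csf1r, the receptor of macrophage colony-stimulating factor, was at 5072 and 4970 CPM with vehicle and 4949 and 4725 CPM with H151, and Adgre1, which encodes F4/80, at 2371 and 2585 CPM with vehicle and 2323 and 2424 CPM with H151.

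H151 lowered many more genes than it raised. Of 14591 tested genes, 325 (2.23%) were called at a false discovery rate (FDR) of 0.05 by edgeR's quasi-likelihood test with Benjamini-Hochberg adjustment, 269 of them lower (1.84%) and 56 higher (0.384%) in Trex1-KO+H151 than in Trex1-KO. Falls were also larger than rises. The median fall among called genes was 0.63 on the log2 scale (1.54-fold; range 0.21 to 2.92) and the median rise 0.44 (1.36-fold; range 0.23 to 1.91), and 66 genes fell but only 4 rose by at least 2-fold, which are 0.452% and 0.0274% of those tested. The count of raised genes was 40 without Trex1-KO replicate 1, 24 without Trex1-KO replicate 2, 30 without H151 replicate 1 and 69 without H151 replicate 2, and that of lowered genes 182, 202, 222 and 279. It was 26 higher and 225 lower in a fit of only the 2 groups, and 93 higher and 319 lower with a replicate block. The median log2 fold change of all tested genes was 0.00. In all 325 called genes the 2 H151 libraries lay on the same side of both vehicle libraries, which was also true of 35.4% of all tested genes (17.9% below, 17.5% above). Without adjustment, 782 genes were lower and 583 higher at a p under 0.05 (5.36% and 4% of those tested), the called genes included. These are bulk libraries, in which fewer cells of a type and less RNA per cell cannot be told apart.

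The genes lowered most were ISGs and inflammatory genes of macrophages. Promoters of some of them are shown first, picked in order of fall because they hold the sequence motif that IFN-activated factors bind, the interferon-stimulated response element. Acod1, which does not hold it, was added by name. Ifit2, Clec4e, Ccl12 and Gpr84 fell more than Ifit3 but held no match and are not shown. Each line gives the 250 bases that end just before the annotated start of the gene (RefSeq sequence, build GRCm38.p6, 5′ to 3′ along the gene's own strand). Capitals mark each match to GAAANNGAAA, searched on both strands, so that a match on the opposite strand shows its reverse complement. The windows are chr5:92348890-92349139 (minus strand) for Cxcl10, chr19:34640639-34640888 (plus) for Ifit1, chr1:174031756-174032005 (minus) for Ifi205, chr19:34583279-34583528 (plus) for Ifit3 and chr14:103046762-103047011 (plus) for Acod1.
Cxcl10: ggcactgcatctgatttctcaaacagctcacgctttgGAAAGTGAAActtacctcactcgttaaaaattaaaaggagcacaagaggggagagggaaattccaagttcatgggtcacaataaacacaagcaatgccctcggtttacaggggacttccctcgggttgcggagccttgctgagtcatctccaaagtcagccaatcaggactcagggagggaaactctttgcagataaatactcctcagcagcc
Ifit1: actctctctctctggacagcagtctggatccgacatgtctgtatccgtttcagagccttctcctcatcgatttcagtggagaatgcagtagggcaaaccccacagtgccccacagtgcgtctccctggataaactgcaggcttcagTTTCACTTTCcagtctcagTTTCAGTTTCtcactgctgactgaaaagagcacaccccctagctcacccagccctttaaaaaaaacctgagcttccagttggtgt
Ifi205: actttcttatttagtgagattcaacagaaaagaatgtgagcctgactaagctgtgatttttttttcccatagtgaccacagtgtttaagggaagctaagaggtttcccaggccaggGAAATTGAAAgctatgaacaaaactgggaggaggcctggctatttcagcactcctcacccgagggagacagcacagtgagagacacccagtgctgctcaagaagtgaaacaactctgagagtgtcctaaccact
Ifit3: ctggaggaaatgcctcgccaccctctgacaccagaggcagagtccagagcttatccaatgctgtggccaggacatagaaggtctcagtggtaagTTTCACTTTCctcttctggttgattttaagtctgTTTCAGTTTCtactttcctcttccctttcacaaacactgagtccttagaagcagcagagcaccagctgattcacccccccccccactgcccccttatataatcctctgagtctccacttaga
Acod1: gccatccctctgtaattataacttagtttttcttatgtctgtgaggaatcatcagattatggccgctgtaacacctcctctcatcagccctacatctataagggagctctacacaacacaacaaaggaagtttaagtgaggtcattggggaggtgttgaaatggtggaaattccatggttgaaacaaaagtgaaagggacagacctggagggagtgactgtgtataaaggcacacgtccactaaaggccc
Cxcl10 and Ifi205 hold 1 match each, and Ifit1 and Ifit3 hold 2. Acod1, with the largest fall among called genes, holds none in this window, which says only that these letters are not in it.

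Among the 15 largest falls under the naming rule, 10 belonged to families of ISGs and the other 5 were Acod1, Cxcl10, Clec4e, Ccl12 and Gpr84. Ifit1, whose product binds viral RNA that lacks host cap methylation, was at 242 and 197 CPM with vehicle and at 57.9 and 70.9 CPM with H151. Both H151 libraries lay far below both vehicle libraries and somewhat above the WT libraries (52.2 and 32.3 CPM), and the log2 fold change was -1.76 ± 0.17 (SE, n = 2 per group, edgeR adjusted p = 3.04e-05). Mx1, a dynamin-like GTPase that blocks influenza viruses, went from 275 and 248 to 69.2 and 91.0 CPM (log2 fold change -1.70 ± 0.14, edgeR adjusted p = 1.71e-05). Rsad2, which encodes viperin, was at 407 and 385 CPM with vehicle and 108 and 154 CPM with H151 (-1.59 ± 0.16, edgeR adjusted p = 6.31e-05). In each of these genes the groups were separate, with the lower vehicle library more than 2-fold above the higher H151 library. Tgtp2, an immunity-related GTPase that acts on vacuoles of intracellular parasites, fell from 60.1 and 57.0 to 17.5 and 21.6 CPM (-1.57 ± 0.12, edgeR adjusted p = 8.52e-06), still above its WT level of 7.80 and 6.10 CPM. Ifi205, a member of the PYHIN family of DNA-binding proteins, fell from 18.2 and 15.7 to 4.97 and 5.11 CPM (-1.74 ± 0.22, edgeR adjusted p = 0.000324).

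The falls outside the ISG family lists were as large but less precise. These lists do not hold every ISG, and Cxcl10, counted outside them, holds the motif shown above. Acod1, which makes itaconate in activated macrophages, had the largest fall of all genes named by the rule, at -2.92 ± 0.47 on the log2 scale. Clec4e encodes Mincle, a receptor for mycobacterial glycolipid, and was at 75.8 and 86.6 CPM with vehicle against 21.3 and 26.7 CPM with H151 (-1.75 ± 0.32, edgeR adjusted p = 0.00731). Its WT libraries, at 53.1 and 17.6 CPM, were spread so widely that they reached on both sides of the H151 libraries, and the same was true of Acod1 (13.6 and 1.69 CPM in WT). Ccl12, a chemokine that draws monocytes, fell from 5.36 and 4.68 to 1.71 and 1.34 CPM (-1.72 ± 0.32, edgeR adjusted p = 0.00915). Gpr84, a receptor for medium-chain fatty acids, fell from 10.1 and 10.6 to 3.26 and 3.02 CPM (-1.72 ± 0.36, edgeR adjusted p = 0.0194), with 39.5% of its exonic length shared with other genes. DESeq2 gave adjusted p-values of 0.0598 for Acod1, 0.0706 for Cxcl10 and 0.0572 for Clec4e, so these calls depended on the tool. Some calls were lost when 1 library was left out: Ccl12 was not called without Trex1-KO replicate 1 (-1.62, edgeR adjusted p = 0.0609) or H151 replicate 2 (-1.55, 0.0692), and the adjusted p of Gpr84 was 0.0531 without Trex1-KO replicate 1, 0.0748 without Trex1-KO replicate 2, 0.0514 without H151 replicate 1 and 0.0644 without H151 replicate 2.

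**Figure D1:**
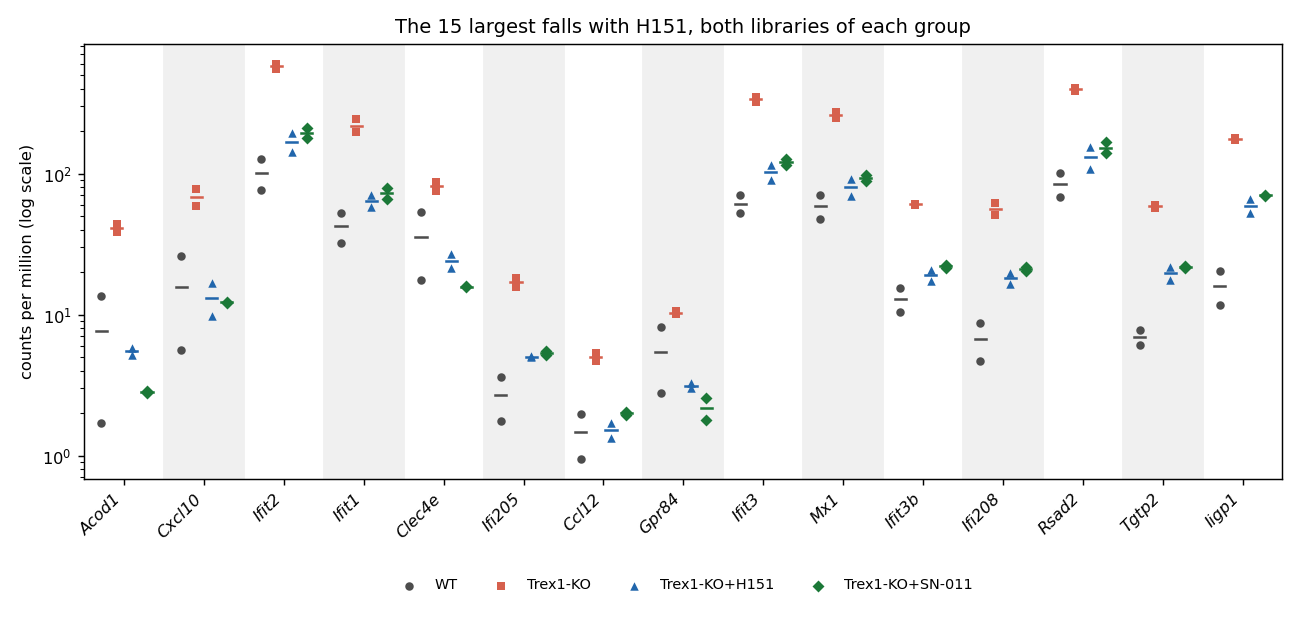
CPM on a log axis for the 15 largest falls under the naming rule, with 1 point per library, a bar at the mean of each group, and WT and SN-011 libraries drawn for reference. The rule itself required both Trex1-KO libraries to lie above both H151 libraries. The WT libraries of Acod1, Cxcl10 and Clec4e spread widely.

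The fall was shared by most members of the antiviral families. In 9 lists of ISG families together, 80 of 104 tested genes (76.9%, against 1.84% of all tested genes) were called lower and 0 higher, with a median log2 fold change of -0.92 against 0.00 for all tested genes, and 96 of the 104 had both H151 libraries below both vehicle libraries, as had 17.9% of all tested genes. The strongest response was in the IFIT family, where 5 of 6 genes fell and the median was -1.69. Among immunity-related GTPases 8 of 10 fell (median -1.07), in the PYHIN family 10 of 12 (-1.06), and in the Schlafen family, whose members restrict growth and viral translation, 7 of 8 (-1.02). Of 7 cytosolic RNA sensors 6 fell (-0.88). Antiviral effectors and ISGylation enzymes followed with 25 of 33 (-0.83), guanylate-binding proteins with 6 of 8 (-0.81), and the PARP family with Dtx3l, a set of ADP-ribosylation enzymes, with 6 of 11 (-0.61).

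Members of these families differed in how far they moved. Within the oligoadenylate synthetases, Oasl1 fell by 1.31 on the log2 scale and Oas2 by 0.77. Among RNA sensors, Ddx58, which encodes RIG-I, fell from 263 and 252 to 128 and 140 CPM (-0.94 ± 0.09, edgeR adjusted p = 2.68e-05), Ifih1, which encodes MDA5, by 0.88, and their regulator Dhx58 by 1.02. Mavs, the adaptor that both sensors signal through, was the 1 member of that list that was not called (-0.09). Among PYHIN genes, Aim2, the sensor that builds an inflammasome on DNA, was at 77.3 and 68.3 CPM with vehicle and 63.7 and 63.8 CPM with H151 and was not called (-0.19 ± 0.08, edgeR adjusted p = 0.397). Slfn1 fell by 1.55 and Slfn8 by 0.87, and Parp14 by 0.95 and Parp9 by 0.78. Among effectors, Samhd1, which depletes the nucleotides that viruses need, had the smallest called fall, 0.31, and 8 members were not called, among them Ifitm1 (-0.14), Ifitm2 (-0.08), Ifitm3 (-0.41) and Ifi27 (0.10). Some calls were lost when 1 library was left out: Isg20 was not called without any 1 of the 4 libraries (-0.82 to -0.68, edgeR adjusted p = 0.08 to 0.248), Bst2 without Trex1-KO replicate 2 (0.303) or H151 replicate 1 (0.172), Phf11a without Trex1-KO replicate 1 (0.0584) or H151 replicate 1 (0.0615), and Gbp2 without Trex1-KO replicate 1 (0.0798) or in DESeq2 (0.1). Many of these genes have close paralogs, and how reads that fit more than 1 copy were placed could shift values between members of a family.

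**Figure D2:**
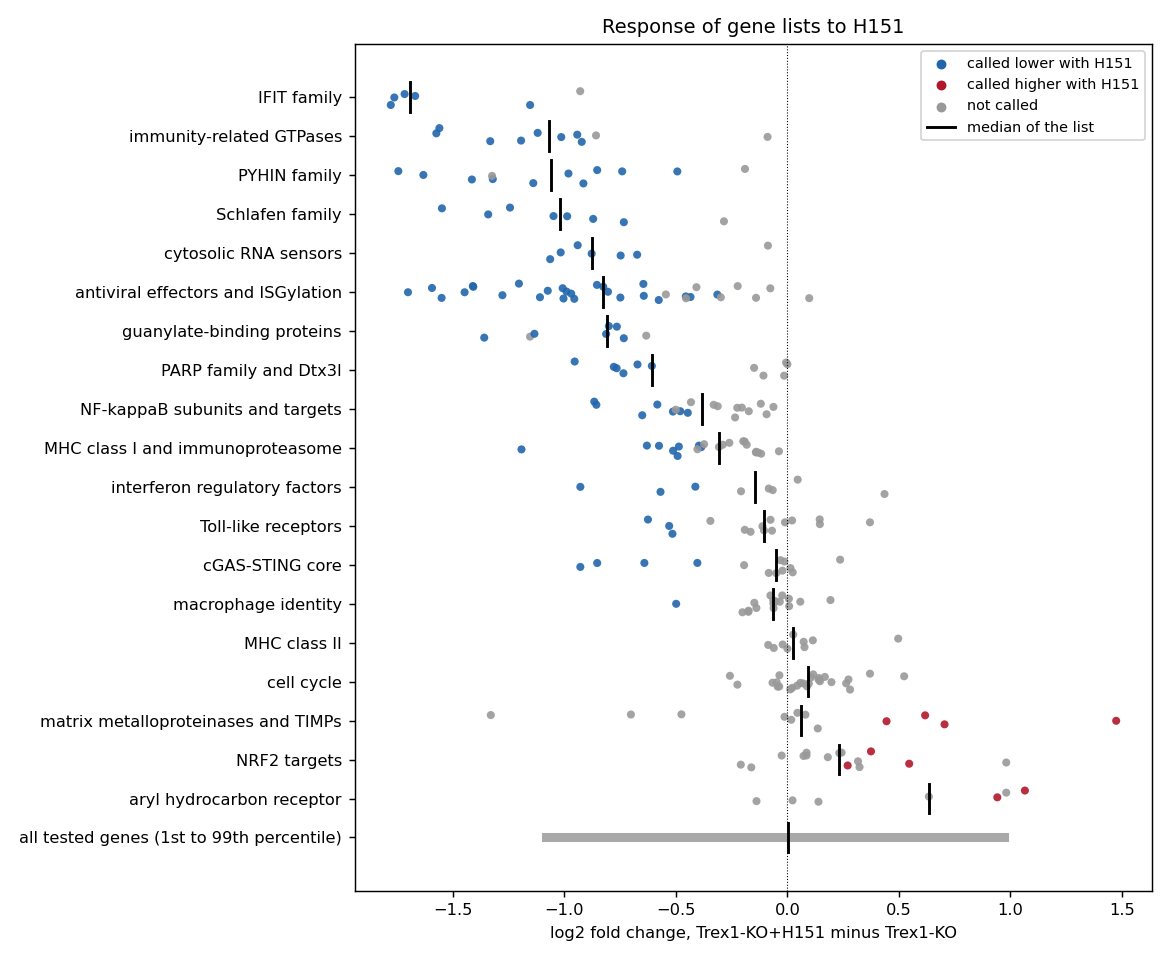
Log2 fold change, Trex1-KO+H151 minus Trex1-KO, of every tested member of the gene lists shown, with a black bar at each list's median and a grey bar for the 1st to 99th percentile of all tested genes. The ISG families lie to the left with medians from -1.69 to -0.61, MHC class II and the cell cycle list lie around 0, and the aryl hydrocarbon receptor list has the highest median, 0.63.

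The components that carry the signal responded unevenly. Of 13 tested genes of the cGAS-STING core, 4 fell (median -0.05). Irf7, a transcription factor gene that IFN itself raises, fell from 479 and 445 to 211 and 274 CPM (-0.93 ± 0.12, edgeR adjusted p = 0.000324), Ifi204 by 0.85, the kinase gene Ikbke by 0.40 and Cgas by 0.64. Tmem173, which encodes STING, was at 57.0 and 48.9 CPM with vehicle and 52.0 and 51.6 CPM with H151 (-0.03 ± 0.09), Tbk1 at 147 and 150 against 141 and 152 CPM (-0.02 ± 0.06), and Irf3 at 52.8 and 58.0 against 47.3 and 57.1 CPM (-0.08 ± 0.09), so that the libraries of both groups overlapped for all 3 genes. Ifnb1, the gene of interferon beta, had at most 2 counts in a library and was not tested. Cgas was not called without Trex1-KO replicate 2 (edgeR adjusted p = 0.419), H151 replicate 1 (0.136) or H151 replicate 2 (0.131), nor was Ikbke without Trex1-KO replicate 1 (0.0511).

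Among genes of transcription factors downstream of the receptor, Stat2, Irf9 and Irf1 fell. Stat2 fell from 350 and 322 to 159 and 166 CPM (-1.05 ± 0.06, edgeR adjusted p = 6.33e-06). Irf9 fell from 129 and 130 to 93.4 and 101 CPM (-0.41 ± 0.07, edgeR adjusted p = 0.00266), and Irf1 by 0.57. Stat3 (-0.04), Stat4 (0.04), Stat5a (-0.08), Stat5b (0.01) and Stat6 (0.00) were not called. The receptor genes Ifnar1 and Ifnar2 had log2 fold changes of 0.01 and 0.00. Of 8 interferon regulatory factors 3 were called, namely Irf7, Irf1 and Irf9, and the median was -0.15.

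The list of NF-kappaB subunits and targets was lowered less than the ISG lists, and only in part. It mixes subunit and inhibitor genes with targets, so its median does not describe NF-kappaB targets in general. Acod1, Cxcl10, Tnf and Il1a, whose log2 fold changes were more negative than any in this list, were counted in other lists. All 18 members of that list had a negative log2 fold change, against 7245 of the 14591 tested genes, with a median of -0.38, and 7 were called lower. Icam1, an adhesion molecule for leukocytes, was at 150.7 and 143 CPM with vehicle and at 78.6 and 83.3 CPM with H151 (-0.86 ± 0.13, edgeR adjusted p = 0.00205). Cd40, a costimulatory receptor, fell from 30.1 and 24.9 to 14.4 and 15.7 CPM (-0.87 ± 0.16, edgeR adjusted p = 0.00739), and Nfkbia, which encodes the inhibitor IkappaB-alpha, from 136 and 132 to 97.7 and 90.3 CPM (-0.51 ± 0.12, edgeR adjusted p = 0.0417). In all 3 genes the H151 libraries were close to each other and below the vehicle libraries. The subunit genes Rela and Nfkb1 had log2 fold changes of -0.06 and -0.20 and were not called, whereas Relb fell by 0.45. The 7 calls became 2 without Trex1-KO replicate 1, 3 without Trex1-KO replicate 2 and 3 without H151 replicate 2. Where the call was lost, the log2 fold changes were -0.46 to -0.43 for Relb, -0.54 to -0.46 for Nfkbia, -0.54 to -0.47 for Nfkbie (-0.65 with all libraries), -0.66 to -0.47 for Traf1 (-0.58 with all libraries), -0.73 for Cd40 and -0.46 for Nfkbiz (-0.48 with all libraries). Of the 7 calls, those of Nfkbie, Traf1, Nfkbia, Nfkbiz, Relb and Cd40 were each lost without at least 1 library. Without Trex1-KO replicate 1 the edgeR adjusted p was 0.284 for Nfkbie, 0.242 for Traf1, 0.151 for Nfkbia, 0.101 for Relb and 0.0695 for Cd40. Without Trex1-KO replicate 2 it was 0.0708 for Traf1, 0.101 for Nfkbia, 0.0833 for Relb and 0.0524 for Nfkbiz. Without H151 replicate 1 it was 0.0532 for Relb, and without H151 replicate 2 it was 0.145 for Nfkbie, 0.194 for Traf1, 0.116 for Nfkbia and 0.0655 for Relb.

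Cytokine and chemokine genes were mostly low in these cells, and few were called. Tnfsf10, which encodes the death ligand TRAIL, fell from 25.1 and 17.7 to 6.03 and 8.40 CPM (-1.55 ± 0.21, edgeR adjusted p = 0.000772), to near the WT level of 6.33 and 4.34 CPM. It was the 1 call among 15 cytokine genes in this fit, which became 3 in edgeR's exact test, 2 in a fit of only the 2 groups, 4 with a replicate block and 5 with every gene with at least 1 count, all lower. Tnf was at 18.5 and 16.2 CPM with vehicle and 7.74 and 8.26 CPM with H151, a log2 fold change of -1.11 ± 0.28 that was not called (edgeR adjusted p = 0.0659). Il1a (-1.71 ± 0.43, edgeR adjusted p = 0.069) and Il1b (-0.88 ± 0.28, edgeR adjusted p = 0.185) were not called either. In Tnf, Il1a and Il1b both H151 libraries lay below both vehicle libraries, as they did in 17.9% of all tested genes. Among CC chemokines, Ccl12 and Ccl7 (-0.73 ± 0.17, edgeR adjusted p = 0.043) were called of 10 tested, and Ccl7 was lost without any 1 of the 4 libraries (0.0621 to 0.292). Ccl2, Ccl3 and Ccl4 had log2 fold changes of -0.31, -0.09 and -0.35 and were not called. Of 10 CXC chemokines, Cxcl10 fell and Pf4 rose, but 3 fell and 1 rose with relative log expression factors, in edgeR's exact test, with every gene with at least 1 count and with a replicate block.

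Some antigen-presentation genes fell. Of 21 genes of MHC class I presentation and the immunoproteasome, 8 fell and none rose (median -0.31), and the count of falls was 5 without H151 replicate 1, 13 without H151 replicate 2 and 14 with every gene with at least 1 count. Tap1, which carries peptides into the endoplasmic reticulum, fell from 214 and 196 to 129 and 135 CPM (-0.63 ± 0.07, edgeR adjusted p = 0.000145), the transactivator gene Nlrc5 by 0.49, and the class Ib genes H2-T24 and H2-T22 by 1.19 and 0.51. The classical heavy chain genes and the light chain gene stayed nearer to their vehicle level and were not called: H2-K1 was at 2697 and 2945 CPM with vehicle and 2341 and 2774 CPM with H151 (-0.14 ± 0.07), H2-D1 had a log2 fold change of -0.04 ± 0.05, and B2m of -0.14 ± 0.05. Sequence similarity among class I genes makes the values of single members uncertain, 29.4% of the exonic length of H2-T22 is shared, and H2-Q6, H2-Q7 and H2-T23 were not called without H151 replicate 1 (edgeR adjusted p = 0.0801, 0.0557 and 0.0568), H2-Q6 also without Trex1-KO replicate 2 (0.0848), and H2-Q7 and H2-T23 also without Trex1-KO replicate 1 (0.0554 and 0.0699). None of 9 class II genes was called (median 0.03), and H2-Ab1 was at 51.8 and 63.4 CPM with vehicle against 48.9 and 61.4 CPM with H151.

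Several innate receptor and cell death genes also fell. Tlr2, a receptor for bacterial lipoproteins, fell from 267 and 240 to 166 and 163 CPM (-0.63 ± 0.10, edgeR adjusted p = 0.00318), below its WT level of 241 and 183 CPM, and the nucleic acid receptors Tlr3 and Tlr9 fell by 0.53 and 0.52. The other 12 of 15 tested genes of the Toll-like receptor list were not called, among them Tlr4 (-0.07 ± 0.06). That list also holds genes of receptor partners such as Myd88 and Cd14. Of 19 cell death genes 4 fell: Zbp1, Daxx by 0.74, the non-canonical inflammasome caspase gene Casp4 by 0.70 and Nlrp3 by 0.45. Fcgr1, a high-affinity antibody receptor that type I and II IFN raise, fell from 493 and 533 to 335 and 391 CPM (-0.50 ± 0.08, edgeR adjusted p = 0.00256), and was the 1 call among 17 macrophage identity genes, which became 2 without H151 replicate 1 or 2. Ms4a4c of the MS4A family fell by 1.08, and Icosl, a costimulatory ligand gene, by 0.79. Without Trex1-KO replicate 1, Tlr3 (edgeR adjusted p = 0.0968), Casp4 (0.0767) and Icosl (0.0668) were not called, and Icosl was not called without H151 replicate 2 either (0.0538).

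Of the 269 genes that fell, 118 were in one of the lists used above. That number leaves out M7core, the study's own signature of the cGAS-STING pathway, of which 86 of 152 tested genes were called lower and 0 higher (median -0.54). The study chose M7core in part from Trex1-KO BMDM data, so its direction here is not independent evidence. From the genes outside the lists used above, the following were chosen after their values were seen, and Rnf213, Helz2, Znfx1 and Lgals9 among them belong to M7core. Rnf213, a very large ubiquitin ligase with antimicrobial activity, was at 1414 and 1312 CPM with vehicle and 696 and 742 CPM with H151 (-0.92, edgeR adjusted p = 2.95e-05). C3, the central complement component, was at 269 and 270 CPM against 125 and 139 CPM (-1.03, edgeR adjusted p = 0.00277), and Sod2, the mitochondrial superoxide dismutase, at 107.5 and 102 against 63.0 and 65.2 CPM (-0.71, edgeR adjusted p = 0.00517). Other such genes were Marcksl1 (-1.23), the formyl peptide receptor gene Fpr1 (-1.40), the ISGs Helz2 (-1.05) and Znfx1 (-0.91), and the galectin gene Lgals9 (-0.67). Both groups were separate in each of these genes. By annotated type, 250 of the 269 were protein coding.

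The genes raised by H151 were fewer and their changes smaller. Mmp8, neutrophil collagenase, had the largest rise under the naming rule. It was at 8.45 and 9.63 CPM with vehicle and at 26.9 and 23.6 CPM with H151 (2.78-fold, log2 fold change 1.47 ± 0.16, edgeR adjusted p = 0.000127), while the WT and SN-011 libraries lay between 7.14 and 13.4 CPM. Gpr141, an orphan receptor gene, rose from 2.94 and 3.10 to 7.41 and 7.12 CPM (1.26 ± 0.24, edgeR adjusted p = 0.0114). Notch1, a receptor for cell contact signals, rose from 92.5 and 85.0 to 166 and 145 CPM (0.81 ± 0.08, edgeR adjusted p = 2.86e-05), the smallest adjusted p of the raised genes named here. In WT it was at 94.8 and 95.7 CPM, so its H151 libraries lay above all 6 others. Ptgs1, which encodes the constitutive cyclooxygenase COX-1, rose from 33.2 and 32.1 to 58.7 and 56.6 CPM (0.82 ± 0.09, edgeR adjusted p = 7.32e-05), and Pf4, a platelet chemokine that macrophages also express, from 173 and 193 to 283 and 266 CPM (0.58 ± 0.08, edgeR adjusted p = 0.00126). Inhbb, which encodes an activin subunit, rose from 6.49 and 4.55 to 10.8 and 10.1 CPM (0.93 ± 0.19, edgeR adjusted p = 0.0175), and the transcription factor gene Myc from 12.0 and 9.76 to 17.3 and 16.5 CPM (0.64 ± 0.15, edgeR adjusted p = 0.0407).

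Both called genes of the aryl hydrocarbon receptor list, Ahrr and Cyp1b1, are known direct targets of that receptor, a transcription factor activated by many small aromatic compounds. Ahrr, which encodes the receptor's repressor, was at 16.1 and 14.6 CPM with vehicle and 32.0 and 32.3 CPM with H151 (1.06 ± 0.13, edgeR adjusted p = 0.000219). Cyp1b1, a cytochrome P450 gene, was at 38.3 and 31.7 CPM with vehicle and 73.7 and 60.9 CPM with H151 (0.94 ± 0.13, edgeR adjusted p = 0.00111), and at 108 and 87.3 CPM in WT. For both genes the groups were separate, but Ahrr went above its WT level of 16.4 and 18.3 CPM whereas Cyp1b1 remained under its own. The other 5 of the 7 tested members were not called: Nqo1 (0.98 ± 0.40), Ugt1a6a (0.63), Tiparp (0.14 ± 0.08), Arnt (0.02) and Ahr itself (-0.14 ± 0.14). Cyp1a1, the best-known target, had 0 counts in all 8 libraries, where 3 counts correspond to 0.175 to 0.255 CPM. Ugt1a7c, which shares 54.6% of its exonic length with other genes and was chosen after its values were seen, rose by 0.50. The bases bound by the receptor hold the core GCGTG, and the promoters of Ahrr (chr13:74292332-74292581, minus strand) and Cyp1b1 (chr17:79715062-79715311, minus strand) are shown with each core in capitals, where the reverse strand reads CACGC.
Ahrr: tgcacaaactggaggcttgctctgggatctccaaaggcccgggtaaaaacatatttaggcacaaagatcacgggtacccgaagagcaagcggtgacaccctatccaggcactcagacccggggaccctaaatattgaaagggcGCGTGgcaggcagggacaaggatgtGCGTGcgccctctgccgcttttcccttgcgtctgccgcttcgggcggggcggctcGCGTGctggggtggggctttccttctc
Cyp1b1: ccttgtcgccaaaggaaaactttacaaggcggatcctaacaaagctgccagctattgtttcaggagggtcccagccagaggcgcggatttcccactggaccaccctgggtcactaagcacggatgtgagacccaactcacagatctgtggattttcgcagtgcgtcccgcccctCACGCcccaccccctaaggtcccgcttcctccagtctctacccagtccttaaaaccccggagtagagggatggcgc
Ahrr holds 3 cores and Cyp1b1 holds 1. These letters are common: 35.2% of all 27025 promoters of that length, 54.8% of those of tested genes and 40.9% of those of raised genes hold at least 1.

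**Figure D3:**
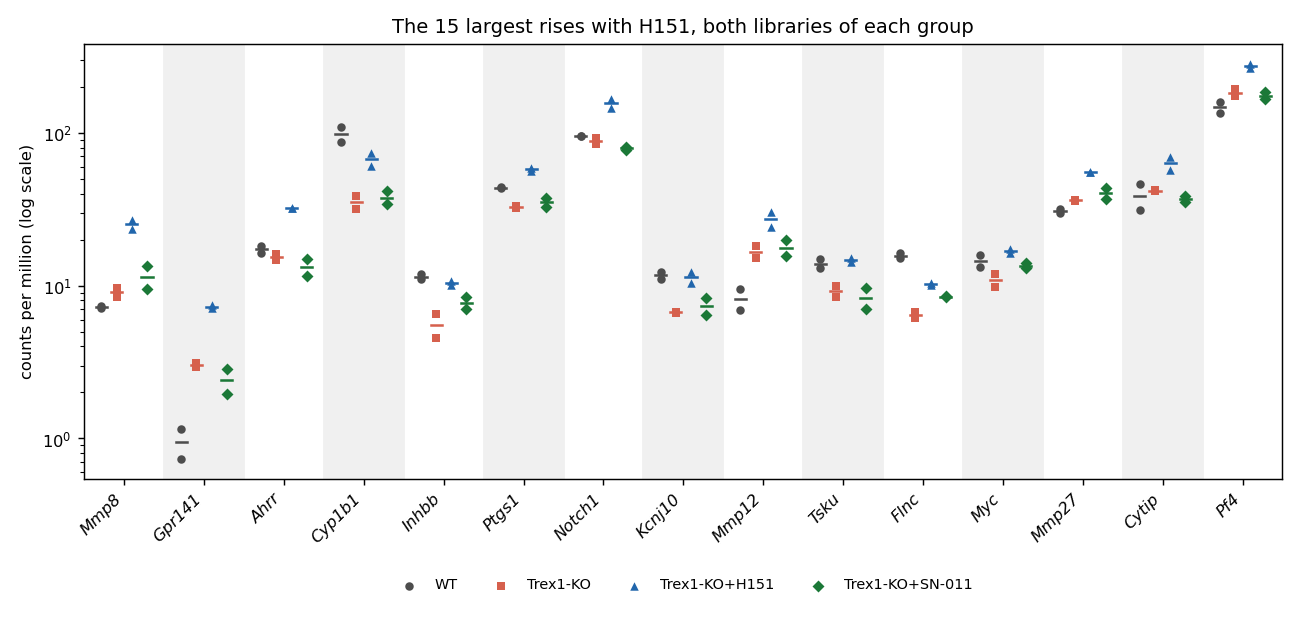
CPM on a log axis for the 15 largest rises under the naming rule, with 1 point per library and a bar at each group mean. The rule itself required both H151 libraries to lie above both Trex1-KO libraries. For Mmp8, Gpr141, Ahrr, Ptgs1, Notch1, Mmp12, Myc, Mmp27, Cytip and Pf4 the H151 libraries lie above the WT and SN-011 libraries as well.

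Other lists held a few raised genes each. Over all tested genes 0.384% were called higher and 2.23% in either direction, so lists of 16 to 26 genes with no call lie close to that share. Of 12 matrix metalloproteinase and TIMP genes 4 rose: Mmp8, Mmp12 by 0.70, Mmp27 by 0.62 and the inhibitor gene Timp1 by 0.44, with a list median of 0.06. Mmp9, Mmp14 and Mmp25 had negative log2 fold changes (-0.70, -0.48 and -1.33) and were not called, although Mmp9 was called lower without H151 replicate 1 (-0.92, edgeR adjusted p = 0.0474), in edgeR's exact test and with every gene with at least 1 count. For this list the count was 2 higher and 0 lower without either Trex1-KO library, 2 higher and 2 lower without H151 replicate 1, 4 higher and 2 lower in the exact test, 3 higher and 1 lower in DESeq2 and 4 higher and 1 lower with a replicate block. Of 15 NRF2 targets, genes of the oxidant response, 3 rose (median 0.23): Osgin1 by 0.55, Gclm, a subunit of the enzyme that limits glutathione synthesis, by 0.37, and Hmox1, heme oxygenase 1, by 0.27, but only 1 was called without either Trex1-KO library and 0 without H151 replicate 1. In the Notch pathway only Notch1 of 12 genes was called, and Hes1, a target of Notch signalling, was at 2.04 and 0.989 CPM with vehicle and 1.96 and 2.55 CPM with H151 (0.60 ± 0.39). Of 20 lysosomal genes 2 rose, Ctsl by 0.33, with 26.9% of its exonic length shared, and Gpnmb by 0.34, as did the scavenger receptor gene Stab1 by 0.23 and the immediate early gene Ier3 by 0.40. None was called among 23 genes of cholesterol and fatty acid synthesis, 22 of glycolysis and hypoxia, 16 of the unfolded protein response and 26 of the cell cycle, with medians from 0.04 to 0.09, except that 1 glycolysis and hypoxia gene was called higher without H151 replicate 2 and 2 with every gene with at least 1 count.

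Many calls among raised genes were lost when 1 library was left out. Of 23 raised genes under the naming rule, 9 were called whichever of the 4 libraries was left out, against 97 of 120 lowered genes. Mmp8, Ahrr, Cyp1b1, Ptgs1, Notch1, Mmp27 and Pf4 were among these 9. Tsku, Flnc, Timp1 and Ier3 lost the call without any 1 of the 4 libraries, and their edgeR adjusted p-values then ranged over 0.0854 to 0.365, 0.0962 to 0.256, 0.121 to 0.223 and 0.0568 to 0.191. Their log2 fold changes were then 0.58 to 0.80, 0.61 to 0.74, 0.43 to 0.45 and 0.35 to 0.44. Gpr141 was not called without Trex1-KO replicate 1 (0.0839), Trex1-KO replicate 2 (0.0768) or H151 replicate 1 (0.0595). The same 3 omissions ended the calls of Mmp12 (0.0581, 0.31 and 0.261), Kcnj10 (0.164, 0.176 and 0.247), Cytip (0.13, 0.185 and 0.235), Hmox1 (0.0877, 0.21 and 0.171) and Stab1 (0.101, 0.246 and 0.211). Myc was not called without Trex1-KO replicate 2 (0.365), H151 replicate 1 (0.159) or H151 replicate 2 (0.0756). Inhbb (0.213 and 0.0722) and Osgin1 (0.123 and 0.0658) were not called without Trex1-KO replicate 2 or H151 replicate 1, and Gclm without Trex1-KO replicate 1 (0.204) or H151 replicate 1 (0.109). Some of these rises were smaller where the call was lost, down to 0.16 from 0.23 for Stab1, 0.68 from 0.93 for Inhbb, 0.49 from 0.64 for Myc, 0.54 from 0.70 for Mmp12, 0.46 from 0.60 for Cytip and 0.64 from 0.76 for Kcnj10. The lowest values of the others were 1.23 for Gpr141, 0.22 for Hmox1, 0.48 for Osgin1 and 0.29 for Gclm.

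Markers of other cells were measured beside these genes because Mmp8 is also a neutrophil gene and Pf4 a platelet gene. Of 10 tested neutrophil markers only Mmp8 was called, and the others included S100a8 (10.9 and 18.3 CPM with vehicle, 16.3 and 17.7 CPM with H151), Ngp (17.7 and 20.1 against 20.9 and 19.3 CPM) and Ltf (14.6 and 14.6 against 16.9 and 11.7 CPM), whose groups overlapped. Ly6g, a defining marker of mouse neutrophils, was at or under 0.202 CPM in these 4 libraries. The sum over the neutrophil list was 96.7 and 117 CPM with vehicle and 128 and 114 CPM with H151. The platelet list summed to 177 and 198 CPM with vehicle and 289 and 272 CPM with H151, nearly all of it Pf4. All 4 of its tested members had a positive log2 fold change (median 0.61), and Ppbp (0.68), Gp1ba (0.64) and Itga2b (0.17) were not called. The part of platelet RNA in the results was not tested. Fibroblast and stromal genes summed to 1397 and 1117 CPM with vehicle and 1566 and 1431 CPM with H151, with 7 of 8 log2 fold changes positive, a median of 0.20 and none called, although 2 were called higher without Trex1-KO replicate 1, and their part in the results was not tested. The lists for B cells, dendritic cells, mast cells and erythroid cells each summed to at most 7.25 CPM in these 4 libraries, and that for T and NK cells to at most 22.3 CPM. The macrophage identity list summed to 42190 and 43900 CPM with vehicle and 40457 and 42463 CPM with H151.

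The response to H151 was then set beside that to SN-011, the second STING inhibitor, to ask which changes differ between the compounds. The labels give 12 h for both but a dose only for H151, the study's methods give the same dose for SN-011, and 1 pair of compounds was compared. The SN-011 libraries carry another treatment text than the other 6, so a batch and the compound cannot be told apart. Both responses are measured against the same vehicle libraries, so only the direct difference, H151 minus SN-011, was tested. Of 14591 tested genes, 23 (0.158%) were called, all higher with H151, and 0 were lower (edgeR). At an unadjusted p under 0.05, 677 genes (4.64%) were higher and 623 (4.27%) lower, and DESeq2 called 38 higher and 3 lower. The direction also depended on single libraries, with 91 higher and 179 lower without H151 replicate 2, 6 higher and 5 lower without SN-011 replicate 2, 16 higher and 1 lower without H151 replicate 1, and 2 higher and 0 lower without SN-011 replicate 1.

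None of the 269 genes lowered by H151 was called between the compounds. These genes were chosen for low values in the same H151 libraries, so their values are given as a description. Their median difference was -0.04 on the log2 scale, and for 259 of them the 95% interval of the difference lay within 1 log2 unit of 0. The ISG lists together had a median difference of -0.06 and 0 calls of 104. For Ifit1 the H151 libraries were at 57.9 and 70.9 CPM and the SN-011 libraries at 66.0 and 79.4 CPM (-0.17), and for Stat2 at 159 and 166 against 168 and 173 CPM (-0.07), with overlap in the first gene only. The 10 genes with wider intervals included Acod1 (difference 0.95, 95% interval -0.43 to 2.32), Cxcl10 (0.13, -0.87 to 1.13) and Clec4e (0.61, -0.16 to 1.39), so that differences beyond 2-fold remained within their intervals. For Gm45418 (-1.57, -2.77 to -0.38) and Apol9b (-0.62, -1.09 to -0.15) the unadjusted interval lay wholly below 0, with less RNA in the H151 than in the SN-011 libraries.

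Of the 23 genes called between the compounds, 16 had been called higher with H151 than with vehicle and 7 had not. Both comparisons use the same H151 libraries, so genes chosen for high values there tend to be higher in the second comparison too, and this count is a description with no test. Notch1 was at 166 and 145 CPM with H151 and 77.5 and 81.0 CPM with SN-011 (difference 0.97), Ahrr at 32.0 and 32.3 against 14.9 and 11.6 CPM (1.26), and Cyp1b1 at 73.7 and 60.9 against 41.4 and 34.0 CPM (0.82). The SN-011 libraries of Notch1 and Ahrr were at or slightly below the level of the vehicle libraries. Mmp8 (1.16), Gpr141 (1.56), Ptgs1 (0.72) and Pf4 (0.65) were also higher with H151. Not all rises differed: Timp1 had a difference of 0.05, Hmox1 of 0.15 and Flnc of 0.27, none of them called. Of the other 7 genes called between the compounds, Cd74, the MHC class II invariant chain, was at 207 and 198 CPM with vehicle, 213 and 192 CPM with H151 and 143 and 148 CPM with SN-011.

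**Figure D4:**
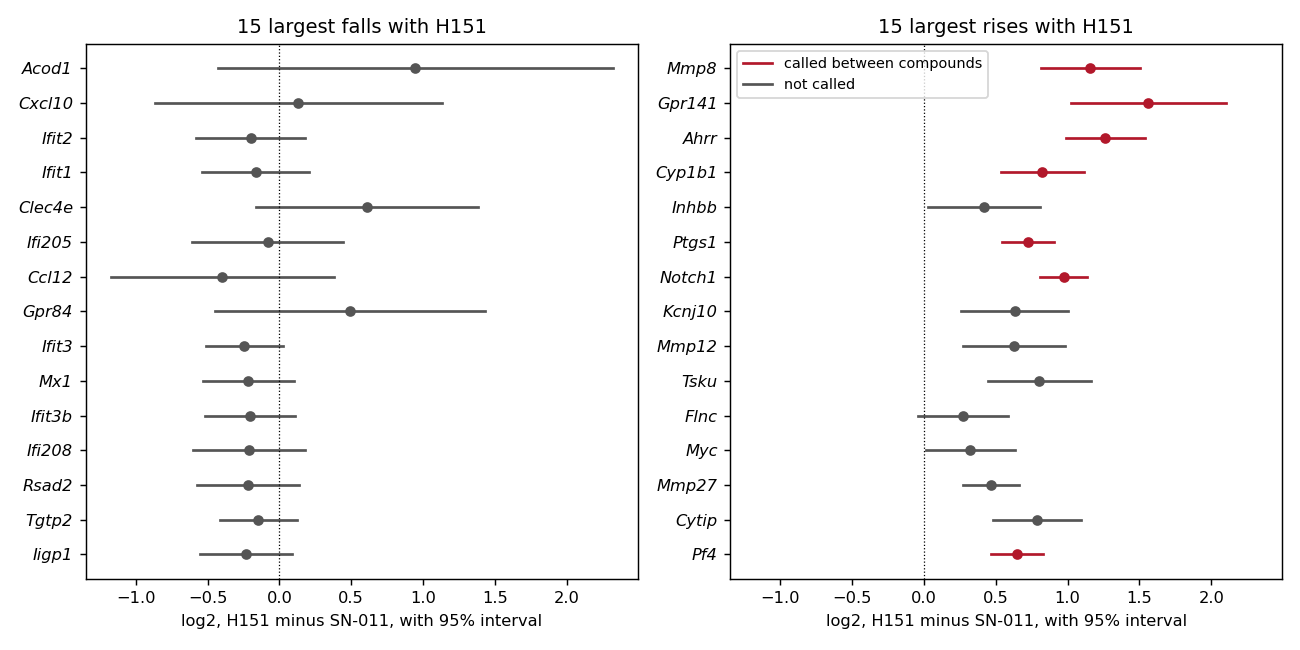
Difference between the compounds, H151 minus SN-011 on the log2 scale with its 95% interval, for the 15 largest falls (left) and the 15 largest rises (right) with H151. No fall was called between the compounds, while Mmp8, Gpr141, Ahrr, Cyp1b1, Ptgs1, Notch1 and Pf4 were called higher with H151.

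H151 did not bring every lowered gene to its WT level. Between H151-treated Trex1-KO and WT cells, 1726 of 14591 genes (11.8%) were called, 990 higher (6.79%) and 736 lower (5.04%), and with library totals as the only scaling the split was 715 higher and 998 lower. Markers of other cells differed in the same comparison. Fibroblast and stromal markers summed to 2948 and 2692 CPM in WT and 1566 and 1431 CPM with H151 (7 of 8 called lower), and neutrophil markers to 26.4 and 25.3 CPM in WT and 128 and 114 CPM with H151 (8 of 10 called higher, Mmp8 among them), and their part in the differences from WT was not tested. Of the 269 genes that H151 lowered, 148 were still called higher than WT, 8 were lower than WT and 113 were not called. Of the 104 tested genes of the ISG family lists, lowered by H151 or not, 73 were called higher than WT. The median log2 difference from WT over these 104 was 0.56. Slfn4 was at 5.74 and 4.61 CPM in WT, 175 and 173 CPM with vehicle and 58.7 and 87.7 CPM with H151, and Oasl1 at 9.86 and 7.12 CPM in WT, 124 and 111 CPM with vehicle and 41.4 and 53.3 CPM with H151. Both therefore remained well above WT (log2 differences of 3.83 and 2.49). By contrast, Gbp7 was at 50.6 and 48.9 CPM in WT and 44.2 and 56.0 CPM with H151, and Icam1, Cd40, Irf1 and Ikbke also were not called against WT (-0.20, 0.12, 0.07 and 0.01). Of the 56 raised genes, 30 were higher than WT, 8 lower and 18 not called. Hmox1 (398 and 385 CPM with vehicle, 487 and 456 CPM with H151, 460 and 481 CPM in WT) was not called against WT, whereas Notch1, Mmp8 and Gpr141 were above it by 0.71, 1.79 and 2.92 on the log2 scale.

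Lowered genes lay close together in the genome. Of the 269, 105 (39.0%) had another lowered gene within 100 kb, against 5.89% of the other tested genes. The largest run was the PYHIN locus on chromosome 1 (173468485 to 174031810, GRCm38), where 11 of 13 tested genes fell. It was followed by the Schlafen locus on chromosome 11 (82951349 to 83215154) with 7 of 10, the Trim30 and Trim34 locus on chromosome 7 (104244457 to 104507849) with 6 of 11, and an immunity-related GTPase locus on chromosome 11 (48861968 to 49135387) with 6 of 10. At the Ifit locus on chromosome 19 (34550694 to 34650009) 5 of 6 tested genes fell, at the Oas locus on chromosome 5 (120730333 to 120907521) 5 of 8, and at a Gbp locus on chromosome 3 (142493978 to 142638008) 4 of 4. These are tandem families of related genes, whose reads can be hard to place. Among raised genes 8 of 56 (14.3%) had a raised neighbour, against 1.14% of the other tested genes. Of their 4 pairs, Exoc3 lies 2386 bases from Ahrr and rose by 0.34, from 94.4 and 101 to 131 and 116 CPM, and Mmp8 lies 2911 bases from Mmp27.

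The motif shown above for Cxcl10, Ifit1, Ifi205 and Ifit3 was found in the promoters of many lowered genes. A window of 250 bases was at hand for 213 of the 269, and 60 of these (28.2%) held GAAANNGAAA on either strand, as did 23 of 51 (45.1%) among genes that fell at least 2-fold. The share was 4.02% among all tested genes with a window, 3.99% among all 27025 promoters, and 4.55% (2 of 44) among raised genes. Of 13 genes with a window among the 15 largest falls, 8 held it. The letters TTCNNNGAA were in 13.1% of lowered genes against 8.19% of tested genes, and TGACTCA, the AP-1 site, in 9.39% of lowered and 11.4% of raised genes against 4.71%. A match is a description of the letters and not evidence of binding.

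**Figure D5:**
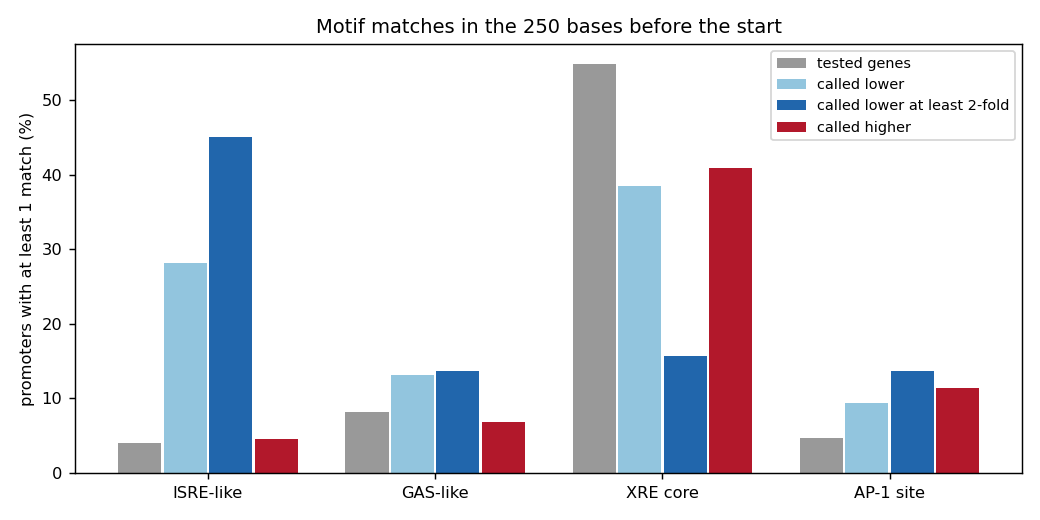
Percentage of promoters (250 bases before the start) that hold each of 4 motifs, with 1 bar each for all tested genes, genes called lower, genes called lower at least 2-fold and genes called higher. GAAANNGAAA (ISRE-like) is in 28.2% of lowered genes and 4.02% of tested genes, while GCGTG (XRE core) is less frequent in raised genes (40.9%) than in tested genes (54.8%).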

How the data were processed

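RNA-Seq libraries of polyadenylated RNA were prepared from mouse BMDMs by the study's authors. The deposited values are raw counts per Ensembl gene, without normalization. The labels name HISAT2, HTSeq and mm10, whereas the methods name Trimmomatic, hisat2 and featureCounts, and the instrument model also differs between these sources. The strand setting used in counting is not given in the sources used here. Symbols and positions came from GENCODE M21, which held 54495 of 54532 identifiers and lacked 37.

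Groups were read from the sample titles. Genes were kept with edgeR's filterByExpr (minimum count 10, minimum total 15), leaving 14591, and TMM-scaled CPM values were computed over these genes. All 8 libraries entered 1 quasi-likelihood fit in edgeR 4.0.16 (R 4.3.3) with 4 group means and no block, and contrasts were tested two-sided, with p-values adjusted by Benjamini-Hochberg across the 14591 genes and an FDR of 0.05. The common biological coefficient of variation was 0.0656. Standard errors were derived from the F statistic and are approximate, and intervals of 95% follow from them. Scripts were tested on simulated data. Total counts, which ran from 11845470 to 17284863 per library, set the precision for low genes, and 3 counts were taken as the floor. The alternatives were other scaling factors, DESeq2 1.42.0, edgeR's exact test, no filter beyond 1 count, a fit of only the 2 groups, a replicate block, and leaving out each library.

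The genes named were the 15 called genes with the largest fall and the 15 with the largest rise (average log2 CPM of at least 1, both H151 libraries on one side of both vehicle libraries), every called member of the gene lists, all members of the cGAS-STING, aryl hydrocarbon receptor, neutrophil and macrophage lists, Trex1 and Atrip, and up to 3 uncalled members of a list, those with the highest mean CPM. Further uncalled members and genes outside the lists were chosen after their values were seen. Some genes that this rule names, and the separate counts of the lists that hold them, are not reported here. The members and lists were chosen with earlier results of these data known, so lists are described by counts and medians without a test. Promoter sequences are from RefSeq (GRCm38.p6). Tables were handled with Python 3.11.15, pandas 2.3.3 and matplotlib 3.10.9.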

Additional observations from a re-analysis of the deposited data

Results flagged for a closer look

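The results that stood out by rule are the 23 genes whose response to H151 differed from that to SN-011 in the direct edgeR test. All are given as H151 minus SN-011 on the log2 scale. The 16 genes that were also called higher with H151 than with vehicle were Gpr141 (1.56), Ahrr (1.26), Mmp8 (1.16), Notch1 (0.97), Cyp1b1 (0.82), Ptgs1 (0.72), Pf4 (0.65), Adam19 (0.65), Tifab (0.53), Pdgfb (0.49), Thbs1 (0.45), Emb (0.43), Ugt1a7c (0.42), Exoc3 (0.41), Ggta1 (0.40) and Gpnmb (0.30). The 7 that were not called against vehicle were Ehd1 (0.55), Il21r (0.55), Cd74 (0.48), Csf2rb (0.43), C5ar1 (0.43), Clec4d (0.33) and Csf2rb2 (0.33). Both tests use the same H151 libraries, so the split into 16 and 7 is a description. The count fell to 2 without SN-011 replicate 1 and to 11 without SN-011 replicate 2, and whether the treatment or a batch of the SN-011 libraries separates these genes cannot be told apart.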

How the results depend on the processing

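None of 183 named genes that was called changed direction under any of these alternatives. The 325 genes changed by H151 became 525 (131 higher, 394 lower) when every gene with at least 1 count was tested, and ranged from 251 to 418 under the other settings. Leaving out 1 library gave 222 to 348. The 23 genes that differed between H151 and SN-011 became 41 in DESeq2, 84 in edgeR's exact test (60 higher, 24 lower), 266 with every gene with at least 1 count (114 higher, 152 lower) and 44 with the replicate block (38 higher, 6 lower), and 2 to 270 when 1 library was left out (91 higher and 179 lower without H151 replicate 2). The cause was not tested, although the setting with every gene tests more genes by construction. Against WT the count stayed between 1323 and 2207, except that it was 986 without WT replicate 1 and 1112 without WT replicate 2, and leaving out 1 library gave 986 to 1738. Called members of the lists numbered 133, with 114 to 138 when 1 library was left out and 127 to 172 otherwise.

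Among single lists, NF-kappaB calls went from 7 to 2 without Trex1-KO replicate 1 and to 4 with total counts only, CXC chemokine calls from 2 to 4 (3 lower, 1 higher) with relative log expression factors, cytokine calls from 1 to 4 with the replicate block, and fibroblast calls from 0 to 3 with the replicate block. Of 183 named genes, DESeq2 ended 13 calls and the fit of only the 2 groups 17, while leaving out 1 library ended 15 to 28.

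The replicate numbers are shared by the groups, but the labels do not say what they mark. With the number as a replicate block, 412 genes were changed by H151 (93 higher, 319 lower), 1939 differed from WT and 153 members of the lists were called. Across the tested genes, deviations of the replicate 1 libraries from their group means were correlated between groups. The values were 0.29 between Trex1-KO and H151, -0.0232 between Trex1-KO and SN-011 and -0.0455 between H151 and SN-011. The replicate 2 deviations are the same values with the opposite sign. With 2 libraries a group, genes at a few CPM carry wide intervals, and DESeq2 gave no adjusted p for 2263 genes.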

Other observations

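Of the 56 raised genes, 41 were in none of the lists, and those named here were chosen after their values were seen. Thbs1, which encodes the matrix protein thrombospondin 1, was at 1181 and 1098 CPM with vehicle and 1618 and 1373 CPM with H151 (log2 fold change 0.39 ± 0.07, edgeR adjusted p = 0.00727), under its WT level of 2224 and 2322 CPM. Lgals3, the gene of galectin-3, was at 1199 and 1296 CPM with vehicle and 1528 and 1741 CPM with H151 (0.39, edgeR adjusted p = 0.00462), and Pdgfb, a growth factor gene, at 57.1 and 54.9 against 85.8 and 81.1 CPM (0.57, edgeR adjusted p = 0.000939). Slc40a1, the iron exporter ferroportin, rose by 0.26, the cytokine receptor gene Il7r by 0.46, and Cd28, better known from T cells, by 0.45. All groups were separate in these genes. All 56 raised genes were annotated as protein coding.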
